A study of Mus musculus with 22 samples.

Results

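Cebpa, Cebpb, Cebpd, Cebpg and Spi1 encode transcription factors that build and maintain the macrophage: C/EBPα, C/EBPβ, C/EBPδ and C/EBPγ of the basic leucine zipper class, and PU.1 of the ETS class. They were taken by symbol from a table of gene expression in mouse bone marrow-derived macrophages, 5 of its 16059 genes, and all 5 passed the filter on low counts that left 12213 genes for testing. RNA came from 5 groups with 2 libraries each: cells given lipopolysaccharide (LPS) and lactic acid (LA), LPS and hydrochloric acid (HCl), LPS alone, LA alone, or neither (control). ATAC-seq, a transposase assay that marks where chromatin is open, was run on 3 samples each of the LPS+LA, LPS, LA and control groups. The macrophages were grown for 7 days from C57/BL6 bone marrow in medium with L929 cell supernatant, a source of the growth factor M-CSF. They were treated for 3 h, with LPS at 100 ng/ml and, beside LPS, LA at 10 mM. The labels do not give a separate LA dose for the group with LA alone, and HCl served to acidify the medium, with pH 6.5 as the example. No genetic change is named for any group, and the mice's age, sex and pooling are not given in the sources. Nothing in the labels tells whether the libraries of a group are from different cultures or mice, and every p-value here therefore reflects the spread among these libraries, which can be purely technical.

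C/EBP proteins bind DNA as dimers with each other, and the make-up of the dimers sets what a site does. C/EBPα drives myeloid commitment and restrains cell division, C/EBPβ and C/EBPδ are the members that inflammatory signals induce in macrophages, and C/EBPγ lacks a strong activation domain and dimerises with the other C/EBPs and with ATF4. PU.1 is a lineage factor that opens macrophage enhancers, often beside C/EBP sites. Lactic acid is the end product of glycolysis, and macrophages can sense both the lactate ion and the acidity.

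Each library held between 18668666 and 20219895 counts. Summed counts of 12 macrophage markers ran from 18050 to 24940 CPM (counts scaled to a common library size by TMM, edgeR's trimmed mean of M-values), and none of the 12 was at 0 in any library. Granulocyte and precursor markers together stayed between 2.12 and 5.67 CPM, and those of T, B, natural killer, dendritic, erythroid, mast and stromal cells at or under 5.95 CPM. Markers of neurons and glia summed to between 30.1 and 67.1 CPM, highest in LPS+HCl replicate 2 (67.1) and control replicate 1 (65.8). LA replicate 1 was close behind (64.1), so this sum does not set the highest libraries apart. The part of these markers in the results was not tested, and fits without LPS+HCl replicate 2 and control replicate 1 were run as an alternative. The TMM factors ran from 0.759 to 1.27, and scaling by total counts alone moved the median log2 change of all genes from LPS over control to -0.77, against -0.05 with TMM. None of the members' significant log2 changes given here turned sign under total-count scaling.

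Cebpa was nearly switched off by LPS, and LA given with LPS kept a large part of its RNA. The gene lies on chromosome 7, 35119293 to 35121928 (GRCm38.p6). It had 49.6 and 47.3 CPM in LPS+LA libraries, 12.5 and 11.0 CPM in LPS+HCl libraries, 5.25 and 6.01 CPM in LPS libraries, 109 and 115 CPM in LA libraries, and 89.4 and 108 CPM in control libraries. No 2 of these groups overlapped, but LA and control lay next to each other without a significant difference. LPS lowered Cebpa 17.5-fold relative to control, a log2 change of -4.13 (SE 0.13, edgeR's adjusted p = 9.33e-19). With LA beside LPS the level was 8.60-fold that with LPS alone, a log2 change of 3.10 (SE 0.13, adjusted p = 1.42e-15). It still lay below control, by a log2 change of -1.03 (SE 0.10, adjusted p = 4.46e-09). In these bulk libraries, fewer cells that express a gene and less RNA per cell cannot be told apart.

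HCl beside LPS gave a smaller change of Cebpa than LA beside LPS did. Whether the media with LA and with HCl were equally acidic was not tested, and no group had HCl without LPS. LPS+HCl libraries stood 2.09-fold above LPS libraries, a log2 change of 1.06 (SE 0.15, edgeR's adjusted p = 4.86e-06). LPS+LA libraries in turn stood 4.12-fold above LPS+HCl libraries (log2 2.04, SE 0.11, adjusted p = 1.02e-12). LA without LPS gave a log2 change of 0.19 over control (SE 0.09, adjusted p = 0.118), which did not pass the threshold of 0.05, although it did without control replicate 2 (0.33). The log2 change with LA was 2.92 larger in the presence of LPS than in its absence (SE 0.16, adjusted p = 8.08e-13). From low to high, the order was LPS, LPS+HCl, LPS+LA, control and LA, and each neighbouring pair but the last differed.

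Cebpd showed the mirror image: LPS raised it and LA beside LPS took that rise away. The gene, which encodes the acute-phase member C/EBPδ, lies on chromosome 16, 15887286 to 15889545. It had 29.0 and 28.8 CPM in LPS+LA libraries, 59.9 and 64.4 CPM in LPS+HCl libraries, 378 and 385 CPM in LPS libraries, 16.2 and 18.9 CPM in LA libraries, and 28.0 and 30.5 CPM in control libraries. LPS libraries stood far above the rest, while the LPS+LA values fell within the range of control. The rise with LPS was 13.0-fold (log2 3.70, SE 0.09, edgeR's adjusted p = 8.92e-21), and LPS+LA libraries were 13.2-fold below LPS libraries (log2 -3.72, SE 0.09, adjusted p = 1.49e-19). Against control, LPS+LA gave a log2 change of -0.02 (SE 0.09, adjusted p = 0.879). With total-count scaling it was -0.34 and passed, where the median of all genes was also -0.34.

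HCl lowered Cebpd as well. LPS+HCl libraries were 6.13-fold below LPS libraries (log2 -2.62, SE 0.08, edgeR's adjusted p = 1.3e-16), and LPS+LA libraries were a further 2.15-fold below LPS+HCl libraries (log2 -1.11, SE 0.09, adjusted p = 5.74e-10). In contrast to Cebpa, Cebpd fell with LA alone, to a mean of 17.5 ± 1.92 CPM in LA libraries, against 29.2 ± 1.80 CPM in control libraries (SD, n = 2 each, log2 -0.74, SE 0.09, adjusted p = 1.72e-06). The fall with LA was larger by a log2 of -2.98 with LPS than without it (SE 0.13, adjusted p = 1.32e-14). From low to high, the groups ran LA, LPS+LA, control, LPS+HCl and LPS, and each neighbouring pair but LPS+LA and control differed.

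Cebpb was lowest in untreated cells and higher in each treated group. It encodes C/EBPβ, of which several protein isoforms come from a single mRNA, so counts per gene do not separate them, and it lies on chromosome 2, 167688915 to 167690432. It had 406 and 417 CPM in LPS+LA libraries, 540 and 518 CPM in LPS+HCl libraries, 275 and 299 CPM in LPS libraries, 359 and 335 CPM in LA libraries, and 75.0 and 112 CPM in control libraries. The control libraries were apart from each other, yet every treated library lay above both. LPS raised Cebpb 3.08-fold over control (log2 1.62, SE 0.15, edgeR's adjusted p = 6.32e-06). LA alone raised it 3.72-fold (log2 1.89, SE 0.15, adjusted p = 8.88e-06), and by absolute log2 change that placed Cebpb at rank 434 of 12213 genes for LA against control. Among the 5 members, Cebpb was the one with the largest LA effect in cells without LPS.

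The amount that LA beside LPS added to Cebpb depended on the scaling. LPS+LA libraries were 1.43-fold above LPS libraries (log2 0.52, SE 0.14, edgeR's adjusted p = 0.0117), a call that was lost when LPS+LA replicate 1, LPS+LA replicate 2 or LPS replicate 1 was left out. With total-count scaling the log2 change of LPS+LA over LPS was 0.92 and that of LPS over control was 0.90, and both passed. LPS+HCl libraries were 1.84-fold above LPS libraries (log2 0.88, SE 0.14, adjusted p = 0.000939). The LPS+LA and LPS+HCl libraries differed by a log2 of -0.36 (SE 0.14, adjusted p = 0.0719), which passed the threshold without control replicate 1 or 2 (-0.36 each) and without both libraries highest in neuron and glia markers (-0.39). The log2 change with LA was smaller by -1.38 with LPS than without it (SE 0.21, adjusted p = 0.000435). Levels were lowest in control, then in LPS, LA and LPS+LA, and highest in LPS+HCl, and among neighbours only LPS and control passed in the fit to all libraries. That order is not firm. LPS and LA differed by a log2 of -0.27 (adjusted p = 0.128), and this passed without the filter on low counts, without control replicate 1 or 2, without both libraries highest in neuron and glia markers and with only the groups compared (-0.27 to -0.25), and at -0.88 with total-count scaling. LPS+LA and LA differed by 0.25 (SE 0.14, adjusted p = 0.249), which also passed without control replicate 1 or 2 (0.25 each).

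Cebpg moved in the direction of Cebpa, over a narrower range. The gene lies on chromosome 7, 35046422 to 35056566, 62.7 kb from Cebpa. It had 26.2 and 25.8 CPM in LPS+LA libraries, 23.5 and 20.4 CPM in LPS+HCl libraries, 17.4 and 19.7 CPM in LPS libraries, 38.4 and 41.4 CPM in LA libraries, and 47.7 and 40.6 CPM in control libraries. The groups with LPS lay below those without it, and LA overlapped with control. LPS lowered Cebpg 2.38-fold relative to control (log2 -1.25, SE 0.12, edgeR's adjusted p = 2.06e-09), and LPS+LA libraries were 1.40-fold above LPS libraries (log2 0.49, SE 0.12, adjusted p = 0.00162). Changes for LA against control (log2 -0.15, SE 0.11, adjusted p = 0.311), LPS+HCl against LPS (0.24, SE 0.13, adjusted p = 0.132) and LPS+LA against LPS+HCl (0.24, SE 0.12, adjusted p = 0.109) did not pass. With total-count scaling the last pair of changes were 0.48 and 0.41 and passed. From low to high, the groups ran LPS, LPS+HCl, LPS+LA, LA and control, and only LPS+LA and LA differed as neighbours (log2 -0.62, SE 0.11, adjusted p = 0.000135).

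Spi1 was among the most abundant transcripts tested, with a mean level above that of 98.8% of genes, and LPS raised it further. It encodes PU.1 and lies on chromosome 2, 91082374 to 91115759. It had 662 and 647 CPM in LPS+LA libraries, 773 and 764 CPM in LPS+HCl libraries, 1326 and 1262 CPM in LPS libraries, 485 and 538 CPM in LA libraries, and 384 and 457 CPM in control libraries. No groups overlapped, and LPS libraries were well above the rest. The rise with LPS was 3.08-fold (log2 1.62, SE 0.08, edgeR's adjusted p = 5.18e-15), with a log2 change of 0.90 under total-count scaling. LPS+LA libraries were 1.98-fold below LPS libraries (log2 -0.98, SE 0.08, adjusted p = 8.69e-11) and LPS+HCl libraries 1.68-fold below them (log2 -0.75, SE 0.08, adjusted p = 2.42e-08).

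Smaller differences of Spi1 rested on the scaling or on single libraries. LA against control gave a log2 change of 0.28 (SE 0.08, edgeR's adjusted p = 0.00455), which no longer passed with total-count scaling (0.18), without LA replicate 2 (0.21), without control replicate 1 (0.16), or without both libraries highest in neuron and glia markers (0.16). LPS+LA libraries were below LPS+HCl libraries by a log2 of -0.23 (SE 0.07, adjusted p = 0.0162) and above LA libraries by 0.35 (SE 0.08, adjusted p = 0.00066). With total-count scaling these were -0.066 and 0.14, and neither passed. The difference from LPS+HCl was also lost when any 1 of the 4 libraries compared was left out (-0.24 to -0.22). The LA effect was lower by a log2 of -1.27 with LPS than without it (SE 0.11, adjusted p = 9.05e-10). From low to high, the order was control, LA, LPS+LA, LPS+HCl and LPS, with each neighbouring pair different under TMM scaling.

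**Figure D1:**
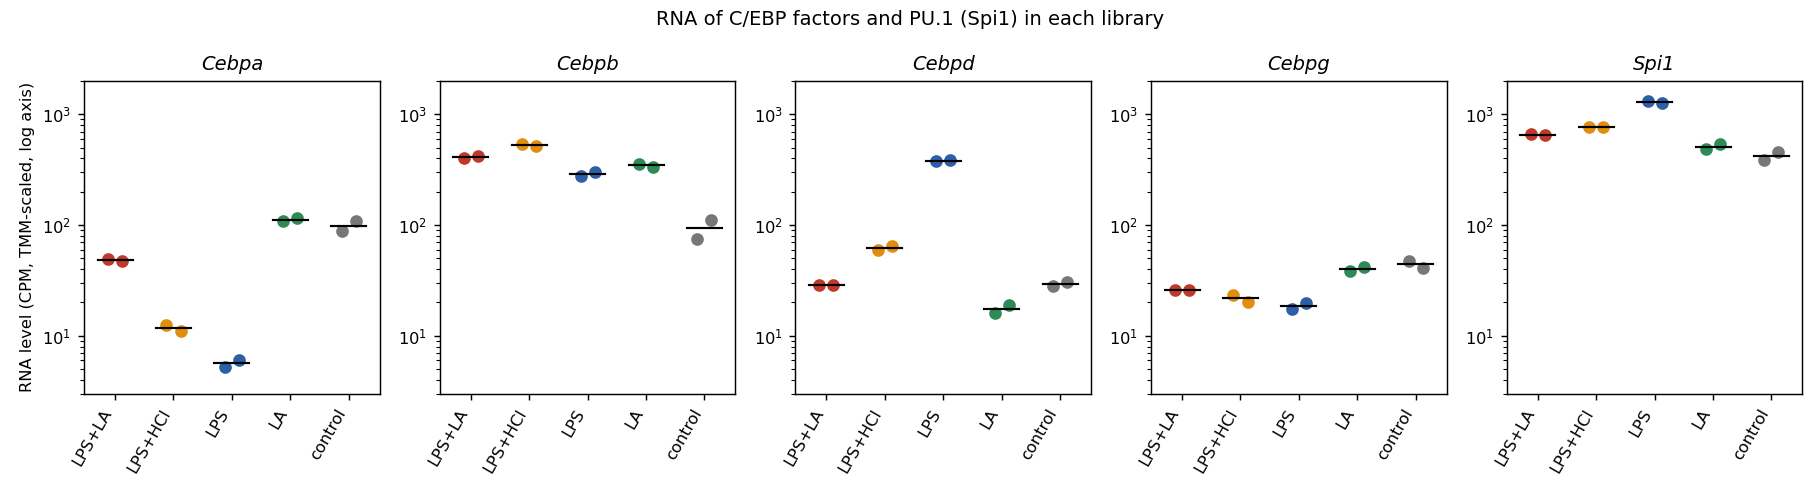
RNA level of each gene in CPM on a log axis, for the LPS+LA, LPS+HCl, LPS, LA and control groups, with a point per library (2 in each group) and a line at the group mean. Cebpa is lowest and Cebpd highest in LPS libraries, and Cebpb is lowest in control libraries.

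Counted over the comparisons, all 5 members changed between LPS and control, 3 higher and 2 lower, where 64.8% of all tested genes were called (32.4% higher and 32.4% lower). Between LA and control 3 of 5 changed (Cebpb and Spi1 higher, Cebpd lower), where 38.3% of genes were called (20.4% higher, 17.9% lower). Between LPS+LA and LPS 5 of 5 changed (3 higher, 2 lower) beside a background of 58.9% (29.2% higher, 29.7% lower). Between LPS+HCl and LPS 4 of 5 changed (2 higher, 2 lower) beside 38.8% (18% higher, 20.8% lower). The contrast of LPS+LA with LPS+HCl called 3 of 5 (Cebpa higher, Cebpd and Spi1 lower) beside 40.9% (18.4% higher, 22.5% lower), and that of LPS+LA with LA called 4 of 5 (2 higher, 2 lower) beside 30.5% (15.9% higher, 14.6% lower). The remaining pairs, used for the order of levels, called 4 of 5 for LPS+LA against control (background 51.3%), 5 of 5 for LPS+HCl against control (57.6%), 4 of 5 for LPS against LA (64.9%) and 5 of 5 for LPS+HCl against LA (53.9%). The last of these rests in part on Cebpb (log2 0.61, edgeR's adjusted p = 0.00528), which did not pass with total-count scaling (0.23) or without LA replicate 2 (0.56). With so many genes called, the number of members called is not set apart from the background, and the size of the changes is what is described here. The LA effect depended on LPS for 5 of 5 members, as it did for 44.3% of genes (20.4% with a positive and 23.9% with a negative interaction). Several of these comparisons share their LPS, LA or control libraries and are given side by side only. In the presence of LPS, LA moved Cebpa, Cebpd, Cebpg and Spi1 opposite to the direction of LPS itself, and moved Cebpb in the same direction. Both changes use the same LPS libraries, and the share of all genes that reversed was not counted. The Cebpb change was small with TMM (log2 0.52) and larger with total-count scaling (0.92), and it was not called in every alternative fit.

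**Figure D2:**
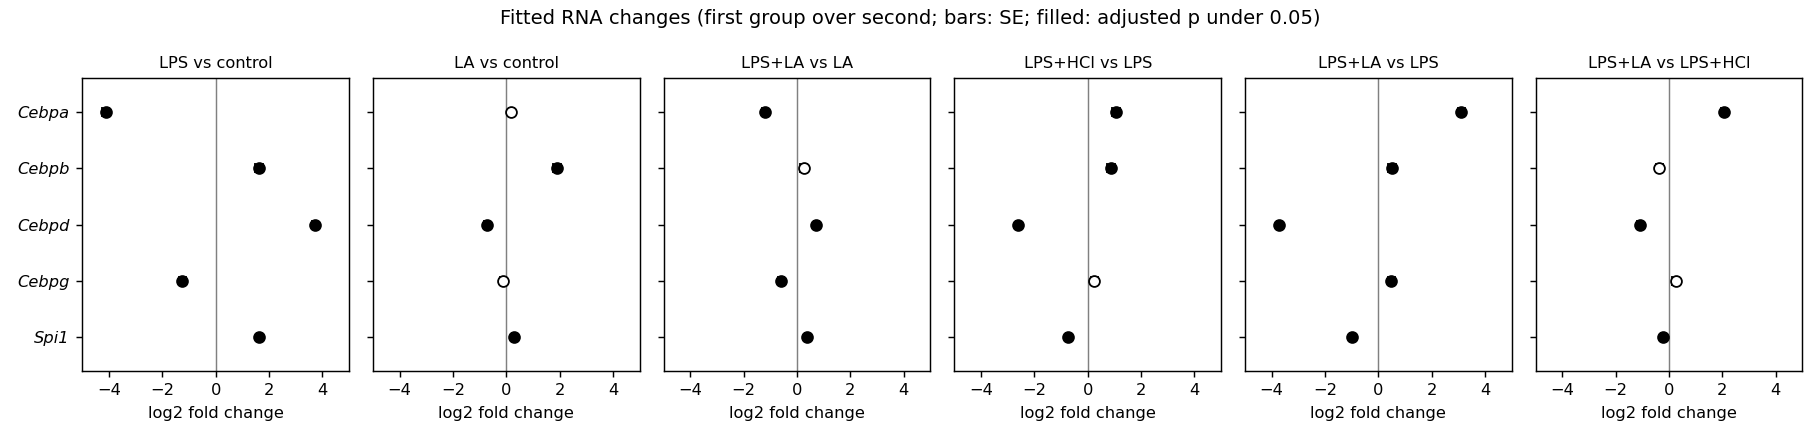
Log2 fold change of each gene in each comparison on a common axis from -5 to 5, with bars of 1 SE, most of them shorter than the point. Filled points passed an adjusted p of 0.05. For LPS over control, Cebpa lies at -4.13 and Cebpd at 3.70, and for LPS+LA over LPS they lie at 3.10 and -3.72.

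Levels per transcript length allowed the C/EBP genes to be compared with each other. In the deposited TPM values, which are scaled for transcript length, the 4 C/EBP genes summed to 582 ± 17.2 in LPS+LA libraries, 693 ± 2.79 in LPS+HCl libraries, 560.0 ± 26.4 in LPS libraries, 627 ± 25.5 in LA libraries and 310 ± 50.6 in control libraries (SD, n = 2 each). Cebpb took 88.3 ± 0.413% of that sum in LPS+LA, 90.7 ± 0.386% in LPS+HCl, 52.5 ± 1.10% in LPS, 79.9 ± 1.58% in LA and 50.9 ± 5.09% in control. It was the most abundant C/EBP transcript in every group, and what came after it changed with the treatment. Cebpd took 45.9 ± 1.19% in LPS libraries and 10.7 ± 1.29% in control libraries, but 4.09 ± 0.0808% in LPS+LA libraries. Cebpa took 5.85 ± 0.286% in LPS+LA libraries, 0.577 ± 0.0322% in LPS libraries and 30.6 ± 1.52% in control libraries. Cebpg held between 1.05% in LPS and 7.75% in control on average.

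The ratio of Cebpb to Cebpa TPM put these shifts into a single measure. It was 14.5 and 15.7 in LPS+LA libraries, 77.1 and 83.3 in LPS+HCl libraries, 93.3 and 88.8 in LPS libraries, 5.85 and 5.18 in LA libraries, and 1.49 and 1.84 in control libraries. The ratio was highest in LPS and LPS+HCl libraries, lower in LPS+LA and LA libraries and lowest in control libraries, and no groups overlapped. Spi1 held a mean of 850 TPM in LPS+LA libraries, 956 in LPS+HCl, 1389 in LPS, 771 in LA and 748 in control libraries, above the summed C/EBP genes in each. The Spi1 means carry no TMM scaling either and do not rank the groups. All of these are levels and shares of RNA, and no protein was measured.

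**Figure D3:**
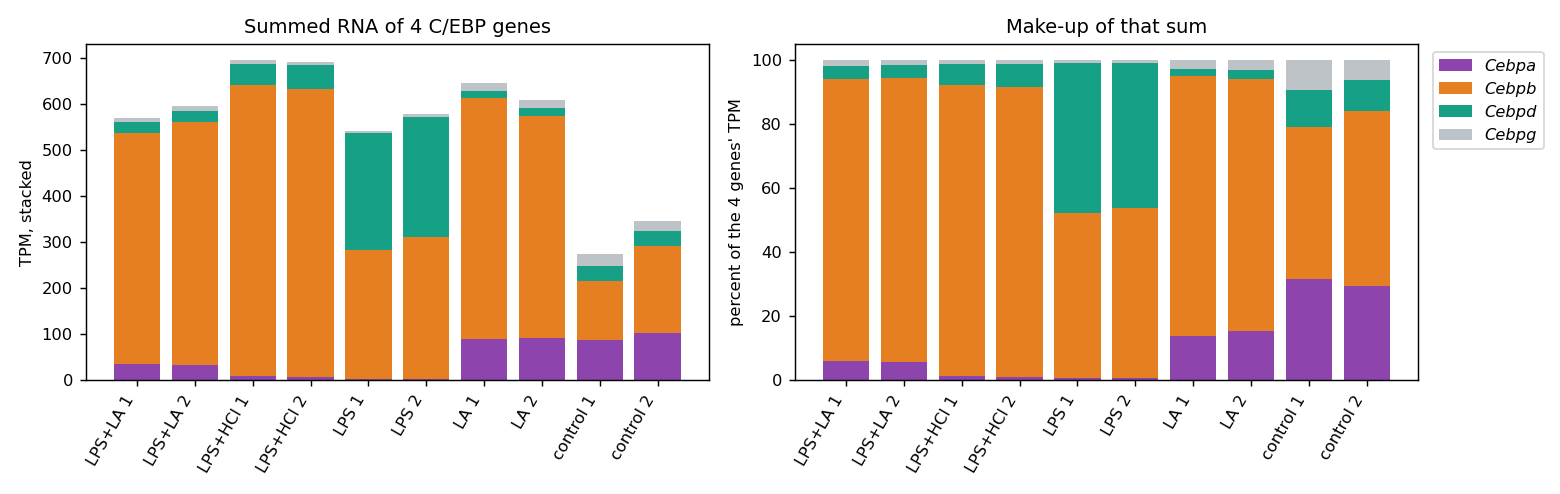
Deposited TPM of Cebpa, Cebpb, Cebpd and Cebpg stacked from 0 (left) and as a percent of their sum (right), with a bar per library in the LPS+LA, LPS+HCl, LPS, LA and control groups. Cebpb averages 88.3% in LPS+LA and 90.7% in LPS+HCl, and Cebpd averages 45.9% in LPS alone. The stacked TPM values are not TMM-scaled and do not rank the groups.

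For each member, the 3 genes most alike in log CPM over the 10 libraries were listed from 8236 genes with a mean of at least 10 CPM. The libraries share their treatments and depth, so these correlations are descriptions. Cebpa was most like Bhlhe41, a circadian repressor (Pearson r = 0.998), Dgkd (0.998) and Tspan14 (0.997). Cebpd was most like Prkcd, a protein kinase C (0.998), Syk, a tyrosine kinase of Fc receptor signalling (0.998), and Tmem131 (0.995). Cebpb was most like Adora2b, the low-affinity adenosine receptor that raises cAMP (0.989), Atp8b2 (0.974) and Nfil3, a bZIP repressor (0.971). Cebpg was most like Serpinb8 (0.984), Ip6k1 and Mlec (0.983 each), and Spi1 was most like Wfdc17 (0.993), Dlgap4 (0.992) and Sh3bp5 (0.991).

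Promoter sequence was at hand for 3 of the 5 genes from a RefSeq table (GRCm38.p6), as the 250 bases before the annotated start. They are shown because Cebpa and Cebpb went opposite ways with LPS, and because Cebpg went with Cebpa on the same chromosome. Capitals mark matches to the core of the cAMP response element (CRE), TGACG or its reverse complement CGTCA, in Cebpb, and to the CCAAT box, read on the other strand as ATTGG, in Cebpg. The windows are chr7:35119043-35119292 on the plus strand for Cebpa, chr2:167688665-167688914 on the plus strand for Cebpb, and chr7:35056567-35056816 on the minus strand for Cebpg.
Cebpa: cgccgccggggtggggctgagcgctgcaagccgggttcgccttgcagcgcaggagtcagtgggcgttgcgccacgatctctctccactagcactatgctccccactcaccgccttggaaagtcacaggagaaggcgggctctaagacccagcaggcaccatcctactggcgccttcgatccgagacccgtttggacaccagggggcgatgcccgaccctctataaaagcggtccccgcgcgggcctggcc
Cebpb: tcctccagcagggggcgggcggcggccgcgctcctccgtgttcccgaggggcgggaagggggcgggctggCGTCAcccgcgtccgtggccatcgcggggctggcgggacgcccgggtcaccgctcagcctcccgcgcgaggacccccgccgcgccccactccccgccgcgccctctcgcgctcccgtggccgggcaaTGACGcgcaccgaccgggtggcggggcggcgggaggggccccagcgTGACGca
Cebpg: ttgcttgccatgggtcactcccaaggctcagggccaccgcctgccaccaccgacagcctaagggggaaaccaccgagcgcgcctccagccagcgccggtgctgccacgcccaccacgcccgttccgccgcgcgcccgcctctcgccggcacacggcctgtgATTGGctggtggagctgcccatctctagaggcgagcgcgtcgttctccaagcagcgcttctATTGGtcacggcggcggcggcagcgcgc

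The Cebpb window held 3 CRE cores, at 180 to 176, 53 to 49 and 7 to 3 bases before the start, the element that CREB and its relatives bind. At least 1 core was found in 17.8% of 32851 promoter windows of this length on either strand, and 3 or more in 0.688%. The window also held 5 matches to GGGCGG, a site of Sp1, 2 of which overlapped each other, and 32.7% of windows held at least 1. Its GC content was 81.6%, against 66.4% for Cebpa, 70.8% for Cebpg and a median of 52.4% over all windows. The Cebpg window held 2 CCAAT boxes, at 89 to 85 and 28 to 24 bases before the start. The CCAAT box, bound by NF-Y in spite of the C/EBP name, was found in 33.8% of windows. The letters searched also included a C/EBP core (TTGCNNAA, in 9.56% of windows), a full CRE (TGACGTCA, 1.55%), a PU.1 site (GAGGAAGT, 2.44%), a STAT site (TTCNNNGAA, 7.02%) and a composite C/EBP and ATF site (TGATGNAA, 3.45%). None of these matched in the 3 windows, and the Cebpa window matched no motif of the list. A match is a string of letters, and no binding was measured.

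Open chromatin around the members was described by which samples had a peak at each site. Peaks of the 12 samples merged into 127890 sites, of which 83 lay within 50 kb of a member: 23 for Cebpa, 18 for Cebpb, 7 for Cebpd, 16 for Cebpg and 27 for Spi1, with 8 of them shared by Cebpa and Cebpg. All 12 samples had a peak at 50 of the 83 sites (60.2%), against 43.9% of all sites. A site was called gained when it had a peak in 3 of 3 samples of the treated group and in 0 of 3 of its comparison group, and lost in the opposite case. No p is given per site, since 3 samples against 3 cannot go below an exact two-sided p of 0.1. Peak presence shows only whether the caller's threshold was passed and is blind to graded changes at sites open in every sample, and counts per sample ran from 76680 to 100667 peaks.

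Each C/EBP gene had a site over its start or lower bound with a peak in every sample. Cebpa had a peak in all 12 samples at chr7:35118107-35119613, over its promoter, and the authors' peak score there ranked in the 93.2 to 97.1 percentile of its sample. Cebpb had such a peak at chr2:167688589-167690167 (80.9 to 91.7 percentile), Cebpg at chr7:35055863-35057415 (91.5 to 96.3 percentile) and Cebpd at chr16:15886689-15888007 (87.9 to 93.9 percentile). Spi1 had 6 sites within its bounds with a peak in all 12 samples, while the site that overlaps its lower bound (chr2:91082286-91082486) had a peak in 1 of 12. The nearest of those 6 sites was centred 0.8 kb above that bound (chr2:91082792-91083550, 81.6 to 90.8 percentile). No strand was at hand for Spi1, so its start was not placed. The Cebpg promoter site also covers the gene Gm45095, and whether counting used strand is not given, so reads of a gene on the other strand cannot be separated.

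LPS against control, both sequenced on lane 5, gained 5 of the 83 sites and lost 2, where 8.27% of all sites were gained and 2.44% lost. Near Cebpa, a site 21.4 kb before its start (chr7:35097732-35098002) had a peak in 3 of 3 LPS+LA, 3 of 3 LPS, 0 of 3 LA and 0 of 3 control samples. It is also within 50 kb of Cebpg. A site 18.5 kb past the Cebpa start (chr7:35137605-35138010), in the long noncoding RNAs Gm35724 and Gm35665, had a peak in 2, 3, 0 and 0 samples of the same groups. Both sites thus gained a peak in LPS samples, in which Cebpa RNA was lowest.

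Near Cebpb, LPS gained a site 3.5 kb before the start (chr2:167685267-167685475), with a peak in 1 of 3 LPS+LA, 3 of 3 LPS, 0 of 3 LA and 0 of 3 control samples. It also gained a site 19.7 kb past the start (chr2:167708406-167708748), with a peak in 2, 3, 1 and 0 samples. Near Spi1, the gained site lay 10.0 kb below the gene bounds (chr2:91071999-91072394), with a peak in 3, 3, 0 and 0 samples and scores in the 72.1 to 80.1 percentile. It was the strongest of the sites gained near the members. LPS lost a site 30.1 kb below Spi1 (chr2:91052037-91052314, 0, 0, 1 and 3 samples) and a weak site within the gene (chr2:91112522-91112884, 3, 0, 0 and 3 samples, scores at the 0.0659 to 21.4 percentile).

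LPS+LA against LA, both on lane 6, gained 4 of the 83 sites and lost 0, where 6.01% of all sites were gained and 0.483% lost. These were the Cebpa site 21.4 kb before its start, the Spi1 site 10.0 kb below its bounds, the weak site within Spi1, and a site above Spi1 in the gene Madd (chr2:91138507-91139336, 3 of 3 LPS+LA, 3 of 3 LPS, 0 of 3 LA and 1 of 3 control samples). LA and LPS+LA samples ran on lane 6, and control and LPS samples on lane 5, so an LA effect and a lane effect cannot be told apart. With that limit, LPS+LA against LPS gained 1 of 83 sites, the weak site within Spi1, and lost 0, where 2.24% of all sites were gained and 2.29% lost. LA against control gained 0 and lost 2, the same weak Spi1 site and a site 48.4 kb below Cebpd in Prkdc (chr16:15838498-15838847, 2, 3, 0 and 3 samples), where 1.53% of all sites were gained and 2.38% lost. No site near Cebpa, Cebpb, Cebpd or Cebpg was gained or lost between LPS+LA and LPS.

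**Figure D4:**
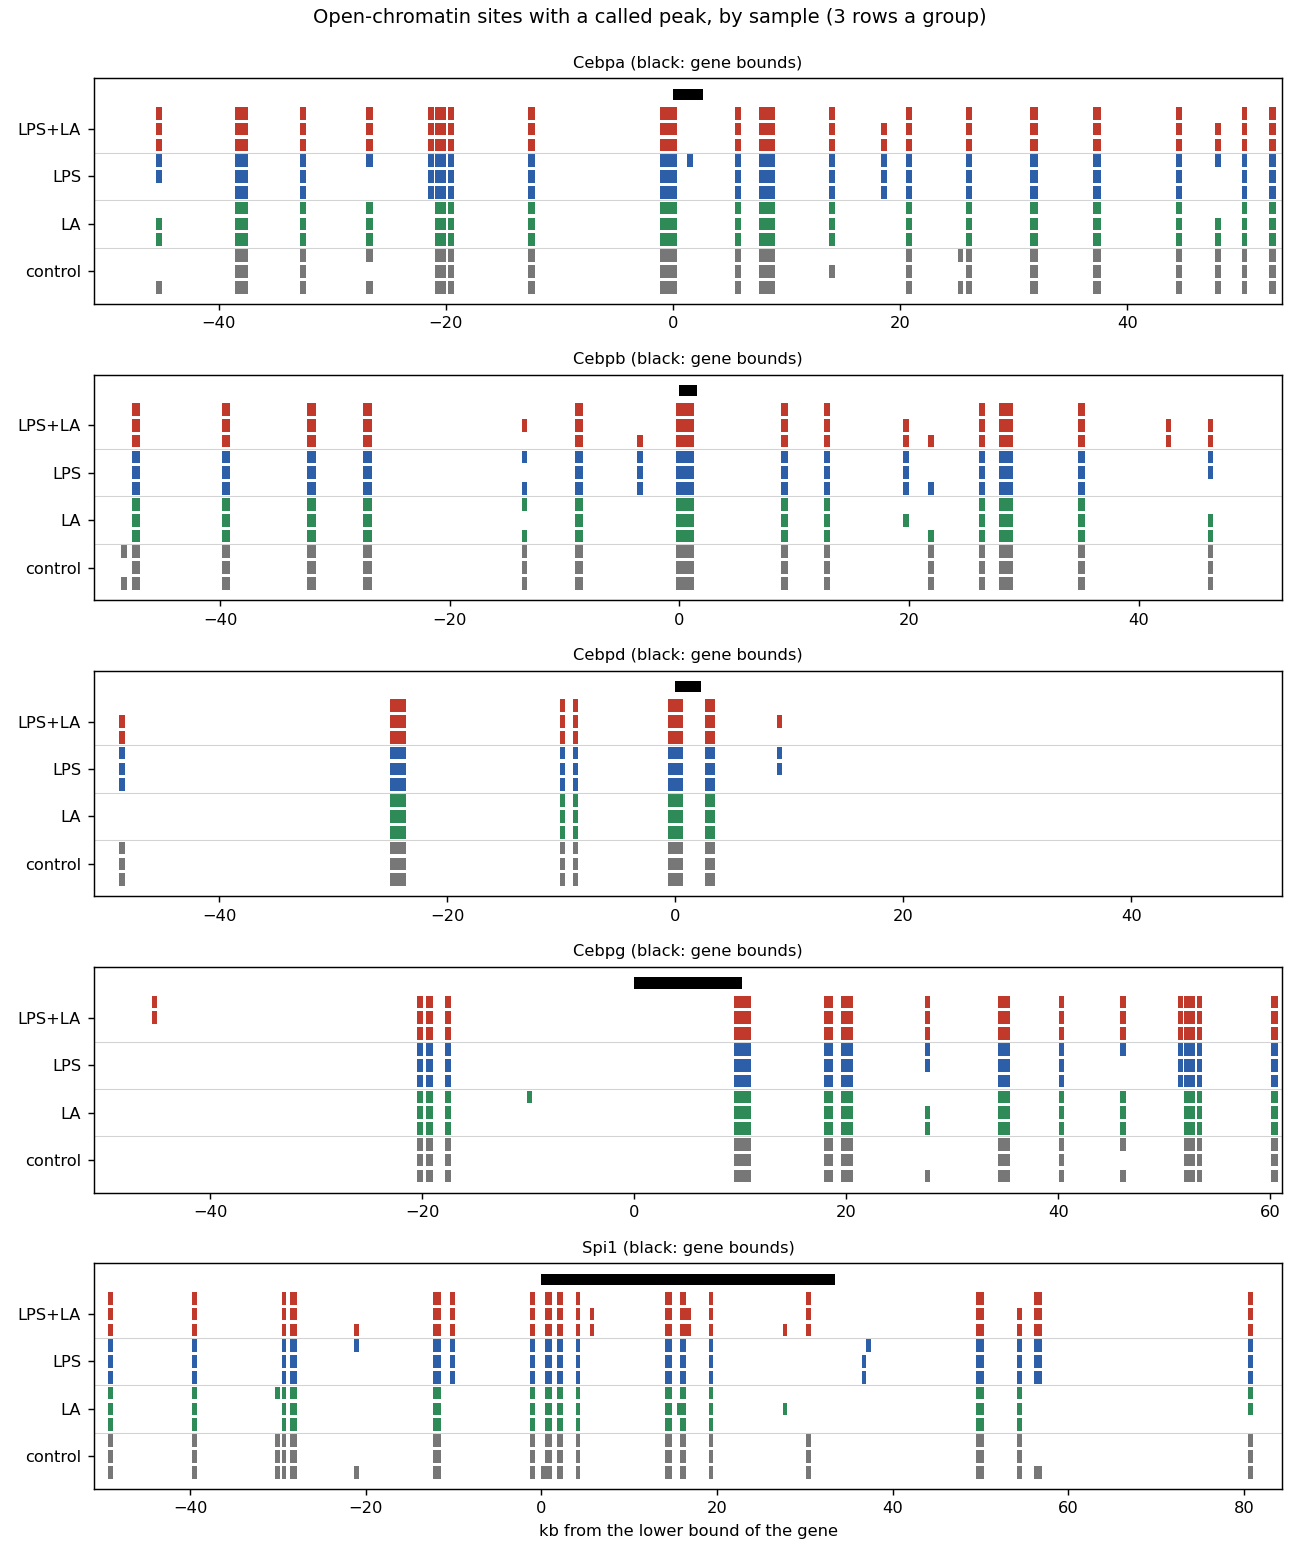
Sites within 50 kb of each gene, placed by distance in kb from the gene's lower bound, with a mark in a sample's row where a peak was called (3 rows each for LPS+LA, LPS, LA and control) and a black bar for the gene bounds. Narrow sites are drawn with a minimum width. A column of marks at the gene's start or lower bound runs through all 12 samples for Cebpa, Cebpb, Cebpd and Cebpg, and few columns are filled in some groups only.

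Genes known as targets of C/EBPβ and C/EBPδ in inflammation mostly rose with LPS and fell with LA beside LPS. The list was chosen with earlier results of these data known, and both comparisons use the same LPS libraries, so the counts are descriptions. Of 20 listed, 18 were tested, and LPS raised 14 and lowered 0 (median log2 change 6.17, against -0.05 over all genes). Of all genes, 32.4% were called higher and 32.4% lower with LPS. Il6, the cytokine gene through which C/EBPβ was found, had 9.63 and 8.32 CPM in LPS+LA libraries, 97.4 and 112 CPM in LPS+HCl libraries, 855 and 801 CPM in LPS libraries, 0 and 0.0446 CPM in LA libraries and no count in control libraries. Ptgs2, the inducible cyclooxygenase, had 286 and 274 CPM in LPS+LA libraries, 679 and 855 CPM in LPS+HCl libraries, 2979 and 2947 CPM in LPS libraries, 12.4 and 14.8 CPM in LA libraries and 0.970 and 0.962 CPM in control libraries. Both were highest in LPS alone, intermediate with HCl and lower with LA.

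With LA beside LPS, 12 of the 18 fell and 0 rose relative to LPS (median -3.03, against 0.03 over all genes), where 29.7% of all genes fell and 29.2% rose. The log2 changes were -6.53 for Il6, -6.43 for the acute-phase gene Saa3, -3.41 for Ptgs2 and -1.82 for the kinase gene Pim1. With HCl beside LPS, 11 fell and 1 rose (median -1.56, against 0.01), with Il6 at -2.99, Saa3 at -2.50 and Ptgs2 at -1.95, and the gene that rose was Il10 (0.57), named here because it was alone. It was not called without LPS+HCl replicate 2, without LPS replicate 1 or 2, without both libraries highest in neuron and glia markers, or by DESeq2. LA against control raised 4 and lowered 0 (median 0.65, against 0.00088; 4 and 1 with total-count scaling), namely Ptgs2 (3.81), Il1b (3.50), Pim1 (0.64) and Il12b (3.77), the last of which was not called without LA replicate 1, control replicate 1 or control replicate 2, or without both libraries highest in neuron and glia markers (5.82).

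**Figure D5:**
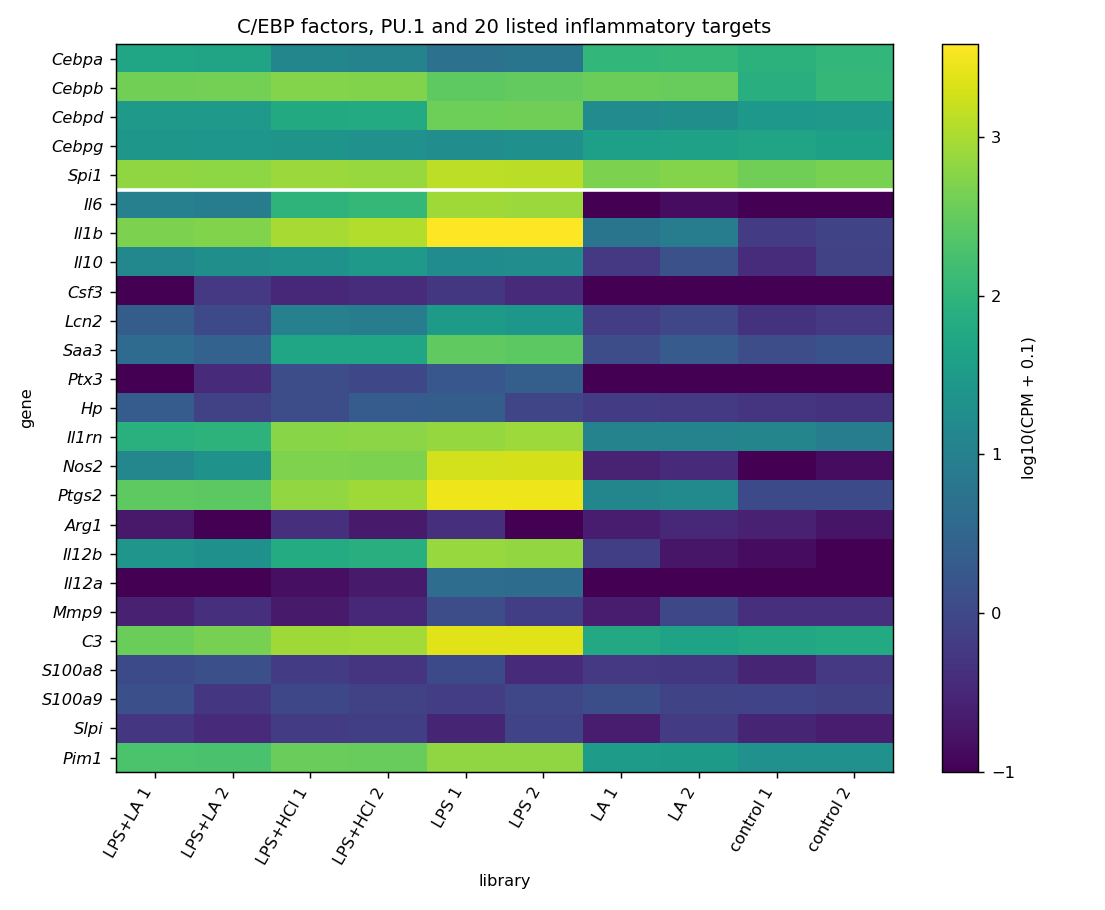
Heat map of log10(CPM + 0.1), with 1 column per library of the LPS+LA, LPS+HCl, LPS, LA and control groups, for the 5 members (above the white line) and the 20 listed inflammatory genes, tested or not. Il6, Ptgs2, Saa3 and Pim1 are brightest in the LPS columns, dimmer in LPS+HCl and dimmer again in LPS+LA.

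Myeloid genes that PU.1 and C/EBPα are known to drive gave smaller changes that depended on the scaling. Of 18 tested, LPS raised 13 and lowered 1 with TMM (median 0.31, against -0.05 over all genes), but raised 5 and lowered 11 with total-count scaling. Cd14, the LPS co-receptor, rose by a log2 of 2.85, the NADPH oxidase gene Cybb by 2.68 and the phosphatase gene Ptprc (CD45) by 1.60, and Tlr4, the LPS receptor, was the 1 gene that fell (-1.02). The addition of LA to LPS raised 3 and lowered 10 (median -0.22, against 0.03), with Cybb at -1.45, Ptprc at -1.24 and the cytokine receptor gene Csf2rb at -0.67, but with total-count scaling it raised 10 and lowered 4. Cd14 did not fall with LA: its mean was 3344 ± 47.5 CPM in LPS+LA libraries and 2538 ± 1.87 CPM in LPS libraries (SD, n = 2 each). Csf1r, the M-CSF receptor and a classical target of PU.1, was picked after its values were seen, and it gave a log2 change of -0.07 for LPS+LA against LPS and was not called.

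Lists of the cAMP and CREB pathway and of STAT3 and IL-6 family signalling, both known to act on C/EBP genes, hold inputs as well as outputs of these pathways. Whether either pathway acted on the C/EBP genes here was not tested. Of 12 genes of the cAMP and CREB pathway, LA against control raised 9 and lowered 0 (median 1.07, against 0.00088 over all genes). In the same comparison 20.4% of all genes were higher and 17.9% lower, and Cebpb was among the higher. The orphan receptor genes Nr4a1, Nr4a3 and Nr4a2, known CREB targets, rose by log2 changes of 5.64, 4.47 and 3.84, and Fosl2 rose by 2.51. The CREB family genes Creb1 and Atf1, chosen after their values were seen, gave -0.02 and 0.04 and were not called. In LPS+LA libraries 7 of the 12 were higher and 4 lower than in LPS libraries (median 0.30, against 0.03), with Nr4a1 at 5.55 and Fosl2 at 2.44, and with Nr4a3 at -1.66 and the phosphodiesterase gene Pde4b at -1.44. With total-count scaling 7 rose and 2 fell.

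Of 11 genes of STAT3 and IL-6 family signalling, LPS raised 8 and lowered 2 (median 2.24, against -0.05). Socs3, the feedback inhibitor, rose by a log2 of 8.43, the kinase gene Jak2 by 4.84, the IκB family gene Bcl3 by 4.14 and Stat3 by 2.24. Relative to LPS alone, LPS+LA lowered 8 and raised 3 (median -0.58, against 0.03), with Jak2 at -1.70 and Stat3 at -1.46, while Lif (3.63) and the IL-6 receptor gene Il6ra (1.28) rose. With total-count scaling 5 fell and 3 rose.

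Regulators of C/EBP protein stability were called in both directions, in a background where 64.8% of genes were called for LPS over control and 58.9% for LPS+LA over LPS. The proteins of Trib1 and Trib2 bring C/EBPα to the ubiquitin ligase COP1. Of 6 tested, LPS raised 2 and lowered 3 (median -0.75, against -0.05; 1 and 4 with total-count scaling), with Cop1 at 1.91 and the ligase subunit gene Skp2 at -3.11. For LPS+LA over LPS, 3 rose and 3 fell (median 0.32, against 0.03), with Cop1 at -1.63, Fbxw7 at -0.95, Skp2 at 2.17 and Trib3 at 1.05. Protein turnover was not measured.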

How the data were processed

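RNA was measured in 10 libraries (5 groups of 2) and open chromatin in 12 other samples (4 groups of 3), grouped by their labels. The members and the 9 gene lists (114 genes, 109 tested, with Ddit3 and Trib3 in 2 lists each) were chosen with earlier results of these data known. Per gene and library the authors deposited expected counts, TPM values and FPKM values. The deposited FPKM values were not used, and the deposited TPM values served only to compare levels between genes. The submitters' processing notes name HISAT, Bowtie2 and GRCm38.p6, but no counting tool. All expected counts were rounded, since 6.07% were not whole. Of the gene IDs, 15959 matched a RefSeq table of GRCm38.p6.

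Genes were kept by filterByExpr (minimum count 10, minimum total 15), scaled by TMM, and fitted in all 10 libraries with 1 term per group by edgeR 4.0.16 (glmQLFit, robust) in R 4.3.3. The two-sided quasi-likelihood test of edgeR gave p-values for each contrast, adjusted after Benjamini and Hochberg over all 12213 genes, with a threshold of 0.05. Every adjusted p in the text comes from this test. On simulated counts for LPS+LA against LPS (11892 genes, 50 changed at each size), log2 changes of 0.5, 1, 2 and 3 were called in 62%, 86%, 100% and 100%, and 7.45% of calls were false. In the data 58.9% of genes were called in this comparison, a far larger share than was changed in the simulation. Its rates therefore need not hold for the data. TMM rests on most genes holding a stable share of RNA. The alternatives were total-count scaling, size factors and the Wald test of DESeq2 1.42.0, no filter, a replicate block, only the groups compared, and leaving out libraries.

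For ATAC-seq the authors deposited a peak list per sample with a score per peak, per the submitters' processing notes made with BWA 0.5.9, Picard and MACS2 2.0.10 on mm10 (GRCm38). The deposited score, the authors' own, was used only to rank peaks within a list. Peaks that overlapped by 1 bp were merged into sites. Any read shift for the transposase cut is not given in the sources. Sequencing lanes come from the file headers.

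Named genes were the members, up to 4 called genes per list with the smallest adjusted p in the comparison described, and the 3 genes most alike to each member. Sites named were those gained or lost and those at or nearest to gene starts or lower bounds. Promoters of Cebpd and Spi1 were not analysed here.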

Additional observations from a re-analysis of the deposited data

Results flagged for a closer look

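All 5 genes are listed here because the LA effect with LPS differed from the LA effect without LPS by edgeR's interaction test, as it did for 44.3% of all genes tested. For Cebpa the difference was 2.92 on the log2 scale (adjusted p = 8.08e-13), with LA effects of 3.10 with LPS and 0.19 without it. For Cebpb it was -1.38 (adjusted p = 0.000435), with effects of 0.52 and 1.89. For Cebpd it was -2.98 (adjusted p = 1.32e-14), with effects of -3.72 and -0.74. For Cebpg it was 0.63 (adjusted p = 0.00302), with effects of 0.49 and -0.15. For Spi1 it was -1.27 (adjusted p = 9.05e-10), with effects of -0.98 and 0.28. Each kept its sign and its call in the 17 alternative fits that gave a value.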

How the results depend on the processing

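Of 35 results for the members (5 genes in 7 RNA contrasts), 26 kept their direction and side of the threshold in all 17 alternatives. LA against control for Cebpa ran from 0.054 to 0.33 with 1 library left out and passed without control replicate 2, and for Spi1 it ran from 0.16 to 0.41. Spi1 lost that call at 0.18 with total-count scaling and at 0.16 without both libraries highest in neuron and glia markers. LPS+LA against LPS for Cebpb ran from 0.47 to 0.59, and was lost without LPS+LA replicate 1 or 2 or LPS replicate 1. LPS+LA against LPS+HCl for Cebpb passed at -0.35 with no filter, at -0.39 without both libraries and at -0.36 with only the groups compared, and ran from -0.39 to -0.33 with 1 library left out, passing without control replicate 1 or 2 (-0.36 each). For Spi1 this comparison gave -0.066 with total-count scaling and ran from -0.24 to -0.22. LPS+LA against LA for Cebpb passed at 0.25 with no filter, 0.25 without both libraries and 0.26 with only the groups compared, and ran from 0.20 to 0.30 with 1 library left out, passing without control replicate 1 or 2 (0.25 each). Total-count scaling gave 0.48 (LPS+HCl against LPS) and 0.41 (LPS+LA against LPS+HCl) for Cebpg, and 0.14 for Spi1 in LPS+LA against LA. For Cebpb that scaling gave 0.92 in LPS+LA against LPS and 0.90 in LPS against control, and both passed. LPS+LA against control for Cebpd ran from -0.082 to 0.045 and turned positive without control replicate 2, against -0.02 with all libraries, and neither passed. The cause of these changes was not tested.

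Over all genes, total-count scaling gave 1761 higher and 8289 lower for LPS against control (3963 and 3951 with TMM), 6208 and 2032 for LPS+LA against LPS (3569 and 3622), 4535 and 1310 for LPS+HCl against LPS (2201 and 2541), 3947 higher for LPS+LA against LPS+HCl (2243), 4260 lower for LPS+LA against LA, and 5917 higher and 1294 lower for the interaction (2492 and 2917). LPS+LA against LPS+HCl counted 1381 higher without both libraries and 1477 to 2377 with 1 left out. Of 80 results for listed genes, 77 kept direction and call throughout. Replicate numbers do not pair the libraries: correlations of replicate differences ran from -0.05 to 0.05, except for LPS+HCl with control at -0.50. By that sign, control replicate 1 and LPS+HCl replicate 2 differed from their own replicates in a like way over all tested genes. They are the libraries highest in neuron and glia markers, and the cause was not tested. With a replicate block, no member's call changed, and 3952 genes were higher and 3897 lower for LPS against control.

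Only the 40000 highest-scoring peaks gave, near the members, 2 gained for LPS against control, 1 lost for LA against control, 0 gained and 2 lost for LPS+LA against LPS, and 2 gained and 2 lost for LPS+LA against LA. Over all sites they gave 4680 gained, 1375 lost, and 2707 gained and 1812 lost in the first, second and last of these. At 10 kb the counts were 2 gained and 1 lost (LPS against control), 1 lost (LA against control) and 2 gained (LPS+LA against LA). At 100 kb they were 8 and 4, 4 lost, 2 and 1 (LPS+LA against LPS), and 7 and 1. With 1 sample left out, LPS against control lost 2 to 4 near sites and 3448 to 4825 of all sites. LA against control gained 0 to 1 and lost 2 to 4 near sites, and lost 3819 to 5323 of all sites. LPS+LA against LPS gained 1 to 4 and lost 0 to 1 near sites, and gained 3168 to 5492 and lost 3103 to 5030 of all sites. LPS+LA against LA gained 4 to 9 near sites, and gained 8335 to 12867 and lost 695 to 1094 of all sites. Peak presence limits what can be seen, since a site without a peak may hold reads below the caller's threshold.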

Other observations

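Of the 6 tested relatives or namesakes of the C/EBP factors, Dbp, Tef and Ddit3 fell with LPS and rose with LA beside LPS. Both comparisons use the same LPS libraries, and how many of all genes reversed was not counted. Among the 6, LPS raised 1 and lowered 4 (median log2 change -1.27, against -0.05 over all genes): the repressor gene Nfil3 rose by 2.52, the circadian activator genes Dbp and Tef gave -3.15 and -2.83, and Ddit3 (CHOP), a stress factor that dimerises with C/EBPs, gave -1.38. With LA beside LPS, 4 rose and 0 fell (median 1.08, against 0.03), with Dbp at 3.31, Tef at 1.71, Ddit3 at 1.04 and Nfil3 at 0.34.

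Among ETS relatives of PU.1, 11 of 13 were tested, and LPS raised 4 and lowered 5 (median 0.11, against -0.05; 2 and 6 with total-count scaling), with Etv6 at 2.21 and Ets2 at 1.23 and with Fli1 at -2.69 and Elk3 at -1.79. Adding LA to LPS raised 4 and lowered 4 (median 0.15, against 0.03), and each of those named moved the other way: Etv6 gave -1.25, Ets2 -1.50, Fli1 1.91 and Elk3 2.54. These 4 were named for their small adjusted p, both comparisons use the same LPS libraries, and the share of all genes that reversed was not counted.

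Of 14 partners and antagonists, LPS raised 6 and lowered 4 (median -0.04, against -0.05; 5 and 7 with total-count scaling). Irf8, which binds DNA together with PU.1, rose by 3.11, Egr2 by 2.80 and Zeb2 by 1.70. For LPS+LA over LPS, 4 rose and 5 fell (median -0.12, against 0.03; 7 and 4 with total-count scaling), with Irf8 at -1.42, Zeb2 at -1.58 and Maf at -0.96. Of 15 partners and targets of ATF4 and C/EBPγ, LPS raised 6 and lowered 4 (median 0.15, against -0.05; 3 and 9 with total-count scaling), led by the cystine transporter gene Slc7a11 at 5.20 and Nupr1 at 3.13. In LPS+LA libraries 4 were higher and 6 lower than in LPS libraries (median -0.19, against 0.03), with Slc7a11 at -3.14, Atf3 at -1.38, Atf4 at -1.22 and Asns, the asparagine synthetase gene, at -0.79.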
